A study of Mus musculus with 4 samples.

Results

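GABA-A receptors are the chloride channels through which the transmitter GABA inhibits neurons quickly. Levels of 7 genes that encode their subunits were measured in nuclei of the mouse hippocampus: Gabra2, Gabra3, Gabra4 and Gabra5 (alpha subunits), Gabrb1 and Gabrb2 (beta subunits) and Gabrd (the delta subunit). They were taken by gene symbol from the 32285 genes counted, as a set proposed with earlier results of these data known. A receptor is a pentamer of alpha and beta subunits with a gamma or a delta subunit. The alpha subunit sets much of the drug sensitivity and location of the receptor. Receptors with alpha4 and delta sit mostly outside synapses of dentate gyrus (DG) granule neurons and carry a steady, tonic inhibition. Those with alpha5 carry tonic inhibition in pyramidal neurons of the CA fields, and those with alpha2 lie at synapses, also at the axon initial segment. Delta is also found in parvalbumin interneurons.

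Nuclei came from hippocampi of wild-type (WT) mice, in 2 libraries, and of heterozygous knock-in mice with 1 R87C allele of Cyfip2 (Cyfip2+/R87C, KI), in 2 libraries, all taken at postnatal week 28. The KI line, kept on the C57BL/6N background, is a model of a developmental epilepsy, and its change is in the germ line and so in every cell. Other KI mice of this line had recurrent seizures at this age, and whether the mice used here had them was not given in the sources used here, so effects of the mutation and of seizures cannot be told apart. Libraries held 3′ tagged transcripts, and the label of KI replicate 2 names the allele R88C while its protocol names R87C. How many mice went into a library was not given in the sources used here, so p-values measure the spread between libraries. With 2 libraries a group, an exact permutation test of a single value cannot reach significance, so p-values come from edgeR fits over all genes.

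After filtering, 52016 nuclei remained of 55640 barcodes, with 11925 to 14933 per library and medians of 3866 to 4692 UMIs (unique molecular identifiers, each standing for 1 counted transcript). Pairs of libraries shared at most 0.529% of the barcodes of the smaller one. Nuclei were clustered without genes of GABA-A subunits, and clusters were named by marker genes, so that each class name stands for nuclei like that type. DG granule neurons numbered 2216 to 4289 per library, CA1 pyramidal neurons 1645 to 2429, CA3 pyramidal neurons 744 to 1339, inhibitory neurons 1062 to 1757 and glia 1734 to 3386. In each of these 4 neuron classes the summed markers of the class stood above the same sum in microglia-like nuclei, and both KI libraries lay below both WT libraries. In DG granule neurons their 8 markers summed to 4116 and 3987 CPM in WT and to 3271 and 3861 CPM in KI. Cyfip2 itself was at 182 and 180.4 CPM in WT, and KI had 172 and 171 CPM over all nuclei, and the 3′ count does not separate the alleles. From 7.5% to 24.2% of the nuclei of a library stayed without a name, most in KI replicate 2. A cluster nearest to CA1 that was kept out of that class held 1 and 224 nuclei in WT and 135 and 238 in KI. In such sums, fewer cells of a kind and less RNA per cell cannot be told apart.

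Except for Gabrd, the members lie near other subunit genes. On GRCm38, Gabra2 (chr5:70957597-71095849, minus strand), Gabra4 (chr5:71569749-71658308, minus strand) and Gabrb1 (chr5:71658113-72149037, plus strand) lie side by side. Gabra5 (chr7:57407672-57510059, minus strand) lies 20.5 kb from Gabrg3. Gabrb2 (chr11:42419757-42629028, plus strand) is the only member on the chromosome of Cyfip2, at a distance of 3.56 Mb. Gabra3 (chrX:72432681-72656848, minus strand) and Gabrd (chr4:155384980-155398112, minus strand) complete the set. Whether counting used the strand was not given in the sources used here, so the counts of Gabra5 may include reads from the opposite strand.

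Gabra4 and Gabrb1 start head to head, and the annotated genes overlap by 196 bp, so their start regions are shown to compare with their levels. Gabrb2 is shown as the member that was higher in DG granule neurons of KI. RefSeq windows on GRCm38.p6 run from 250 bases before to 50 after a start and are read 5′ to 3′ on the gene's strand. Of the 7 genes, 6 had such windows, 10 in all, and Gabrd had none. Gabrb1 has 2 windows and Gabrb2 has 3, of which the first along the gene is shown. Capitals mark TGACG or its reverse complement CGTCA, the core of the cAMP response element bound by CREB, which 20.8% of all 32851 windows hold.
Gabra4, chr5:71658259-71658558, minus strand: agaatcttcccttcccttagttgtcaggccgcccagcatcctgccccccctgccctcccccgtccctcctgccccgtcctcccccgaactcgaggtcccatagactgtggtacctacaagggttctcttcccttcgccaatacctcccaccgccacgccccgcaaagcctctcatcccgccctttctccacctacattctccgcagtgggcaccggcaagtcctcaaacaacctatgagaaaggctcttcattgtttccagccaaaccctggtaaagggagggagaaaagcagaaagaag
Gabrb1, chr5:71657671-71657970, plus strand: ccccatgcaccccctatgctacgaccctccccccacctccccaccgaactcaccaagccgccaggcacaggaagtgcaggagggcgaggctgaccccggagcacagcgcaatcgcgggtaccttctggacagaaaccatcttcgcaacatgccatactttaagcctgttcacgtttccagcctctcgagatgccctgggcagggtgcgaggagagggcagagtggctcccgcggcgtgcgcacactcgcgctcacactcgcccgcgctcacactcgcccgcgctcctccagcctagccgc
Gabrb2, chr11:42420190-42420489, plus strand: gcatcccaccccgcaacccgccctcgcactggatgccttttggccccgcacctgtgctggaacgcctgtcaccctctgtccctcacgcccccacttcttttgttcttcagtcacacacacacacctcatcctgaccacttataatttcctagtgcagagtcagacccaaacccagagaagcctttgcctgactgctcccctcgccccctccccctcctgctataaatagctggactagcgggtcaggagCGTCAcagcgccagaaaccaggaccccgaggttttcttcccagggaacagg
The first Gabrb1 window holds 25 CG pairs, its second 9 and the Gabra4 window 12, against a median of 7 over all windows, whereas both windows of Gabra3 hold 0. The first Gabrb2 window is the only one of the 10 member windows with the core, which the other 2 windows of the gene lack, and none holds the full element TGACGTCA, which 1.79% of all windows hold. None holds the site GCGTGGGCG of EGR factors, found in 0.612% of windows, or its form GCGGGGGCG, found in 2.91%. Both strands were searched.

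Levels are given in CPM, the UMIs of a gene scaled by all UMIs of that class and library to a common total, and compare a gene between classes, not genes with each other. Free RNA in the droplets gives neuronal transcripts to any nucleus, so UMIs per 1000 nuclei in microglia-like nuclei served as the background. Microglia-like nuclei held a mean of 1966 to 3074 UMIs per library, against 4149 to 4831 in DG granule neurons.

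Among the alpha subunits, Gabra4 was highest in DG granule neurons. Its level there was 216 and 217 CPM in WT against 215 and 247 CPM in KI, and the highest mean among the other 8 of the 9 classes compared was 103 CPM. The step to the next class, subicular or cortical excitatory neurons, was 1.18 on the log2 scale (SE 0.21, adjusted p = 0.0049, higher in 4 of 4 libraries). The following classes, from these neurons to CA1, had means of 103 and 97.7 CPM, a difference that did not pass (adjusted p = 0.71). CA3 pyramidal neurons were at 97.1 ± 10.7 CPM (SD, n = 4), and oligodendrocytes were lowest at 43.0 ± 2.9 CPM.

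Gabra3 was lowest in DG granule neurons, and its highest means were in inhibitory and in subicular or cortical neurons. It was at 75.7 and 86.1 CPM in inhibitory neurons of WT and at 116 and 107 CPM in KI, with the subicular or cortical neurons at 95.2 ± 4.6 CPM beside them (adjusted p = 0.61 between these classes). In WT alone the subicular or cortical neurons came first, at a mean of 92.6 CPM. CA1 pyramidal neurons held 45.5 ± 2.9 CPM and CA3 pyramidal neurons 18.0 ± 2.7 CPM. In DG granule neurons it was at 5.06 and 7.17 CPM in WT, and KI had 6.37 and 8.41 CPM, 1.53 below CA3 on the log2 scale (SE 0.12, adjusted p = 8.5e-05). Per 1000 nuclei this came to means of 27.0 UMIs in WT and 33.7 in KI, against 42.1 and 87.9 in microglia-like nuclei. It was above them in 1 of 4 libraries and was read as background.

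Gabra2 and Gabra5 had their highest levels in principal neurons. Gabra2 was at 502 ± 20.5 CPM in CA3, 478 ± 80.5 CPM in DG and 473 ± 92.7 CPM in CA1 (SD, n = 4, over both genotypes), while in WT alone the order was CA1, DG and CA3, at means of 547, 543 and 511 CPM. Over both genotypes, the differences of CA3 from DG and of DG from CA1 did not pass (adjusted p = 0.15 and 0.58), whereas CA1 stood 1.0 above astrocytes on the log2 scale (SE 0.13, adjusted p = 4.3e-06). Gabra5 was at 161 ± 36.1 CPM in CA3 and 147 ± 34.1 CPM in CA1, a difference that did not pass (adjusted p = 0.18). CA1 stood 0.60 on the log2 scale above the subicular or cortical neurons (SE 0.09, adjusted p = 0.0017). In DG granule neurons it stood at 97.7 ± 34.8 CPM and in inhibitory neurons at 45.1 ± 11 CPM.

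Of the beta subunits, Gabrb1 was highest in astrocytes, at 2413 and 2577 CPM in WT against 2223 and 2301 CPM in KI, and then in CA3 (1579 ± 117 CPM), DG (1397 ± 174 CPM) and CA1 (1306 ± 181 CPM). After TMM scaling, which corrects for the makeup of each sum, the difference of astrocytes from CA3 did not pass (0.19 on the log2 scale, SE 0.12, adjusted p = 0.20), although CPM was higher in 4 of 4 libraries. Inhibitory neurons held 668 ± 58.8 CPM and oligodendrocytes 299 ± 42.9 CPM, the lowest level (1.32 between them on the log2 scale, adjusted p = 4.1e-08). Gabrb2 was highest in DG (502 ± 85.5 CPM) and inhibitory neurons (481 ± 29.0 CPM), whose difference did not pass (adjusted p = 0.32). These are means over both genotypes. In WT alone inhibitory neurons came first, at a mean of 489 CPM against 429 CPM in DG. CA1 held 276 ± 20.7 CPM and CA3 163 ± 10.4 CPM, and astrocytes, where Gabrb1 was highest, 103 ± 27.6 CPM. Of all genes, 30.9% to 69.4% passed in the pairs of classes compared.

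Gabrd was counted in few UMIs in most classes. In DG granule neurons it was at 33.7 and 33.8 CPM in WT, and KI had 6.79 and 15.9 CPM, and in CA3 pyramidal neurons at 1.26 to 2.86 CPM over the 4 libraries. Per 1000 nuclei, DG granule neurons held 140 and 156 UMIs in WT, against 39.1 and 56.7 in microglia-like nuclei of the same libraries. In CA1 and CA3 the 4 libraries had means of 28.5 and 18.8 UMIs per 1000 nuclei, against 40.6 in microglia-like nuclei. CA1 was above them in 1 library and CA3 in 0, and both were read as background. Within inhibitory neurons it was found in the Pvalb-like nuclei, at 306 and 311 UMIs per 1000 nuclei in WT. The Sst-like, Vip-like and Cnr1-like nuclei had means of 20.6, 9.90 and 17.9 UMIs per 1000 nuclei. DG granule and Pvalb-like neurons were above microglia-like nuclei in 4 of 4 libraries each. The subicular or cortical neurons averaged 78.8 and the rare Lamp5-like nuclei 107 per 1000 nuclei, but in WT replicate 2 they stood at 49.8 and 44.1, below microglia-like nuclei. As CPM, which sets the UMIs against the smaller total of microglia-like nuclei, these held 16.3 ± 5.41 CPM, and DG granule neurons were above them by 0.78 on the log2 scale (SE 0.24, adjusted p = 0.0179) in 3 of 4 libraries, the exception being KI replicate 1.

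**Figure D1:**
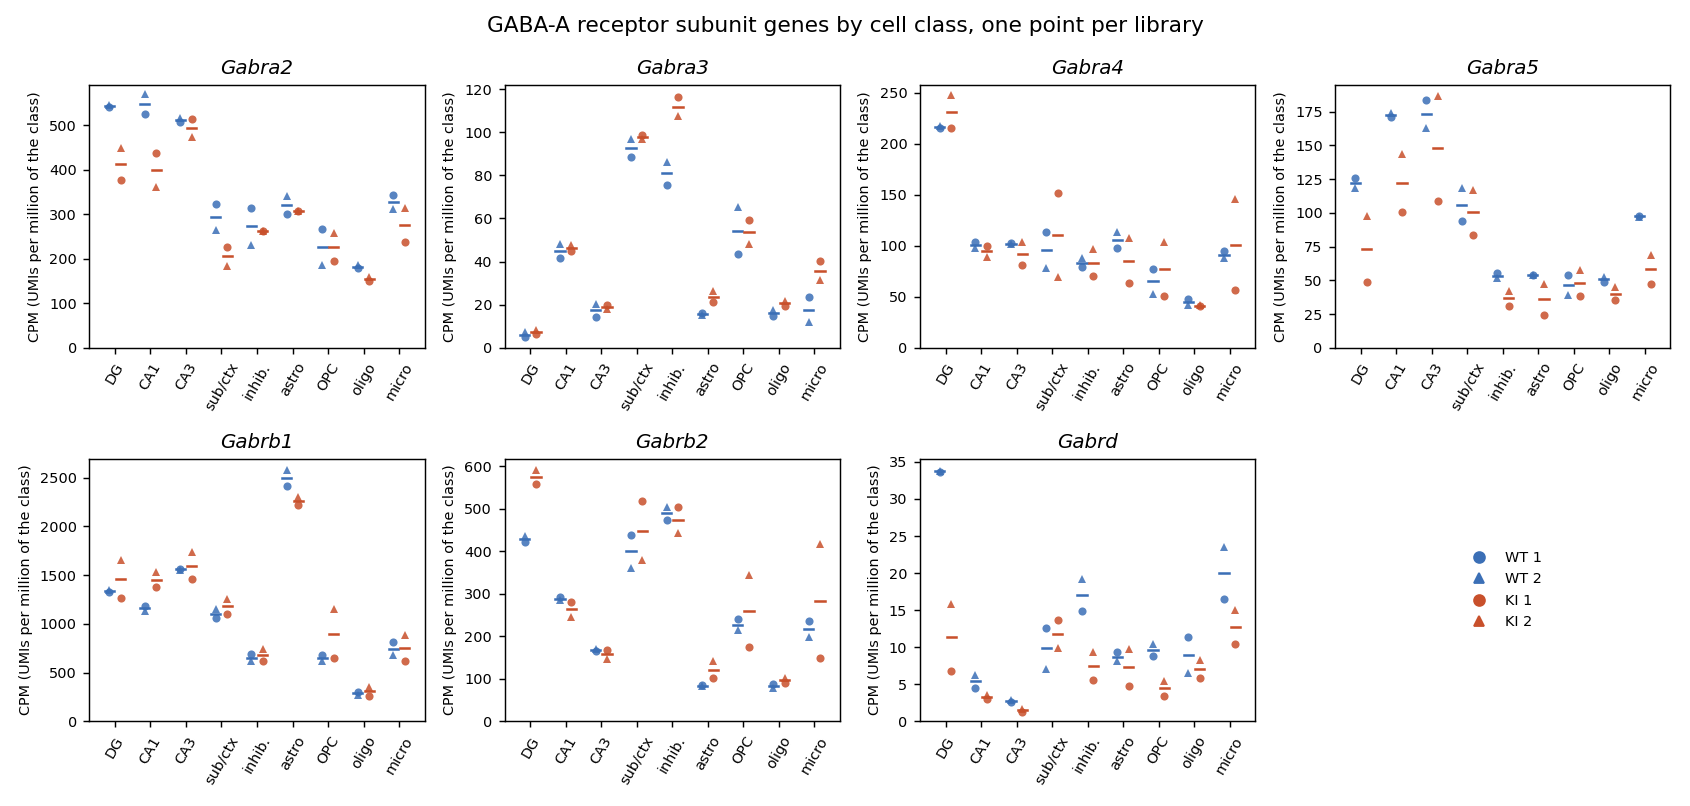
Levels of the 7 genes in 9 cell classes, as CPM on a linear axis that starts at 0 in each panel. Blue points are WT and red points KI libraries (circle for replicate 1, triangle for replicate 2), and bars are group means. Gabra4 was highest in DG in each library, Gabrd in 3 of 4, Gabra3 was lowest there, and Gabrb1 was highest in astrocytes at 2223 to 2577 CPM.

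Within inhibitory neurons, subclasses were named by markers, and their levels are given as a description. In WT, Gabrb2 averaged 1063 CPM in Lamp5-like nuclei, the neurogliaform kind, and 617 CPM in Pvalb-like nuclei, against 319 CPM in Sst-like and 277 CPM in Cnr1-like nuclei. Gabra2 averaged 324 CPM in Cnr1-like and 95 CPM in Pvalb-like nuclei, where its UMIs per 1000 nuclei were above microglia-like nuclei in 1 of 4 libraries. Among the 5 subclasses Gabra3 was highest in Sst-like nuclei, at 129.2 and 129.7 CPM in WT. These subclasses held 42 to 332 nuclei per library and were not tested against each other. Gabra4 averaged 195 CPM in Lamp5-like nuclei of WT and 156 CPM in those of KI. Mossy cells, found with 36 to 80 nuclei per library at a finer clustering, held Gabra2 at 603 and 557 CPM in WT and Gabrb1 at 1568 and 1578 CPM. Gabrd stood at 4.18 and 1.93 CPM in them, on 3 UMIs and 1 UMI.

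The comparison of KI with WT asks how the heterozygous Cyfip2 change moves these subunits in each class. In DG granule neurons 2 of the 7 members passed the test, Gabrb2 higher and Gabrd lower in KI. Of all 16334 genes tested there, 9.87% passed, 4.92% as higher and 4.95% as lower. Scaled by library totals instead of TMM factors, the share of calls that were higher went from 49.8% to 33.8%, and Gabrb2 and Gabrd passed in both. The median log2 change of the 7 members in DG was 0.23, and that of all genes 0.00. In CA1 1 member passed, Gabrb1, higher in KI, where 6.89% of all genes passed. In CA3 none did, where 2.32% of genes passed, and in inhibitory neurons as a whole none did, where 0.0188% passed. At an unadjusted p below 0.05 the members numbered 4 in DG, 3 in CA1, 0 in CA3 and 3 in inhibitory neurons, against 29.3%, 26.7%, 20.8% and 14.3% of all genes. DESeq2 also called 0 members in CA3 and in inhibitory neurons, and 2.88% and 1.2% of all genes.

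Gabrb2 rose in DG granule neurons. It was at 422 and 436 CPM in WT, and KI had 558 and 592 CPM, so the groups did not overlap, as for 63.8% of all genes in this class. The fold was 1.47, or 0.56 on the log2 scale (SE 0.08, edgeR adjusted p = 0.0117). In CA1 it was at 292 and 284 CPM in WT against 281 and 245 CPM in KI (-0.04 on the log2 scale, SE 0.11, adjusted p = 0.873). In CA3 it was at 165 and 171 CPM against 168 and 148 CPM (-0.00175, SE 0.11, adjusted p = 0.995), and in inhibitory neurons at 475 and 504 CPM against 503 and 443 CPM (0.05, SE 0.12, adjusted p = 0.887).

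Gabrd fell in DG granule neurons. From 33.7 and 33.8 CPM in WT it went to 6.79 and 15.9 CPM in KI, so that the KI libraries differed from each other but both lay below both WT libraries. The change was -1.47 on the log2 scale (SE 0.32, adjusted p = 0.0398), or 63.8% lower. It rests on 599 and 514 UMIs in WT and on 81 and 153 in KI. Per 1000 nuclei, 32.8 and 69.0 UMIs were left in KI, against 20.5 and 46.1 in microglia-like nuclei of the same libraries, so the level in KI was closer to background. As CPM, microglia-like nuclei of these libraries held 10.4 and 15.0. Other genes of mature granule neurons had lower values in the same libraries. Calb1, the calcium buffer calbindin, was at 162 and 160 CPM in WT, and KI had 38.4 and 61.4 CPM, and Prox1, their defining factor, at 278 and 294 CPM against 239 and 221 CPM. The part of these shifts in the Gabrd result was not tested. Without KI replicate 1 the change was -0.98 and without KI replicate 2 -2.14. Leaving out either WT library ended the call of Gabrd and that of Gabrb2. The Gabrb2 change stayed at 0.53 to 0.57 with any 1 library left out. The KI libraries of this class differed more from each other than the WT libraries, with a chi-square per degree of freedom of 22.1 against 3.29.

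Gabrd also fell in Pvalb-like inhibitory nuclei. Gabrd stood at 46.0 and 47.1 CPM in WT, and KI had 12.9 and 15.8 CPM there, on 64 and 82 UMIs in WT and 24 and 35 in KI. The change was -1.58 (SE 0.26, adjusted p = 0.000248), and it passed in each of the 9 other fits run, those that left out 1 library included, at -1.49 to -1.71. Gabra3 rose in the same nuclei, from 61.8 and 79.9 CPM to 117 and 93.4 CPM (0.66, SE 0.18, adjusted p = 0.0284), a call that was lost under DESeq2 (adjusted p = 0.297) and library totals (0.113), and without WT replicate 1 (0.517), WT replicate 2 (0.102) or KI replicate 1 (0.151). Thus 2 of the 7 members passed in Pvalb-like nuclei, where 4.06% of 11559 genes did. The 3 clusters of this subclass were unevenly filled: the largest held 33.0% and 60.2% of the Pvalb-like nuclei in WT and 62.7% and 65.3% in KI. Pvalb itself was at 51.7 and 48.9 CPM in WT, and KI had 34.0 and 30.2 CPM, and the 6 markers of the subclass summed to 1122 and 1143 against 654 and 838 CPM. The part of these shifts in the result was not tested.

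**Figure D2:**
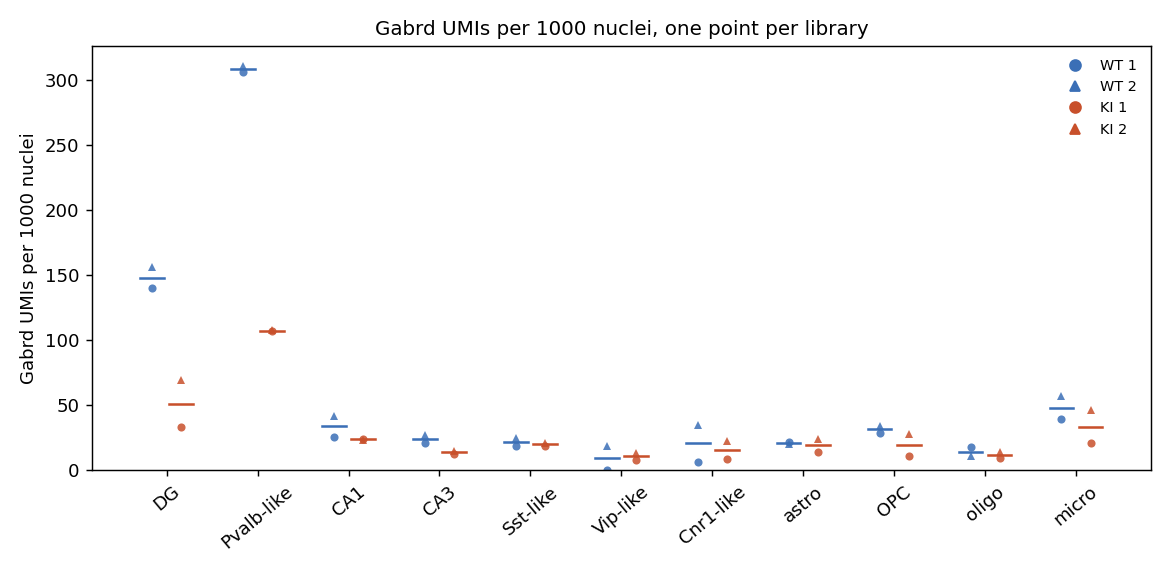
Gabrd UMIs per 1000 nuclei in 11 cell classes, on a linear axis, with 1 point per library (blue WT, red KI) and bars for group means. DG and Pvalb-like nuclei stood above microglia-like nuclei in WT, at 140 to 311 per 1000 nuclei, and were lower in KI, while CA1, CA3, Sst-like, Vip-like and Cnr1-like nuclei averaged 9.90 to 28.5 over the 4 libraries, against 40.6 in microglia-like nuclei.

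In inhibitory neurons as a whole, Gabrd was at 15.0 and 19.2 CPM in WT, and KI had 5.63 and 9.43 CPM (-1.07, SE 0.27, adjusted p = 0.187). Gabra3 was at 75.7 and 86.1 CPM against 116 and 107 CPM (0.56, SE 0.13, adjusted p = 0.172). The groups of both did not overlap, as for 50.9% of all genes of the class, and neither passed the test. An inhibitory cluster whose leading genes include Ano1, Ebf2 and Zic4, with 499 and 80 nuclei in WT and 204 and 486 in KI, belongs to this class. Without it 0 members passed as well, while 257 genes did in place of 3.

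Gabrb1 rose in CA1 pyramidal neurons. It was at 1185 and 1135 CPM in WT, and KI had 1375 and 1529 CPM (0.41, SE 0.07, adjusted p = 0.0249). Scaling by library totals (0.32, adjusted p = 0.0539) and assigning each nucleus by its own markers (0.32, adjusted p = 0.147) ended the call, as did leaving out WT replicate 1 (0.242) or WT replicate 2 (0.329). Fibcd1, a marker of CA1, was at 47.5 and 51.7 CPM in WT, and KI had 20.02 and 24.8 CPM in the same nuclei. Mpped1, another CA1 marker, was at 175 and 178 CPM in WT against 170 and 133 CPM in KI, and the 7 markers of the class summed to 1247 and 1231 CPM against 1067 and 910.0 CPM. The part of these values in the result was not tested. In DG Gabrb1 was at 1329 and 1343 CPM against 1264 and 1652 CPM (0.26, SE 0.11, adjusted p = 0.187), the groups overlapping. In CA3 the change was 0.11 (SE 0.09, adjusted p = 0.502). Gabra4, which starts beside it, was at 104 and 98.2 CPM in WT against 99.5 and 89.2 CPM in KI in CA1 (-0.01, SE 0.12, adjusted p = 0.980), and at 0.23 (SE 0.09, adjusted p = 0.163) in DG.

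Gabra5 and Gabra2 had lower means in KI in DG and CA1, without passing the test. Gabra5 was at 171 and 174 CPM in WT, and KI had 101 and 144 CPM in CA1 (-0.42, SE 0.14, adjusted p = 0.115). In DG it was at 126 and 118 CPM against 48.7 and 97.7 CPM (-0.62, SE 0.27, adjusted p = 0.190), a change of -0.22 without KI replicate 1 and -1.16 without KI replicate 2. In CA3 the KI libraries lay at 109 and 187 CPM, around the WT values of 184 and 163 CPM, so KI replicate 1 was the lowest in all 3 classes. Gabra2 was at 525 and 569 CPM in WT, and KI had 436 and 361 CPM in CA1 (-0.36, SE 0.13, adjusted p = 0.139). In DG it was at 540.3 and 546 CPM against 377 and 449 CPM (-0.26, SE 0.09, adjusted p = 0.13). In CA3 it was at 506 and 516 CPM against 514 and 472 CPM (0.03, SE 0.09, adjusted p = 0.880). With 1 library left out, the change in CA1 ran from -0.64 to -0.23 for Gabra5 and from -0.56 to -0.19 for Gabra2, and in DG from -0.35 to -0.17 for Gabra2.

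**Figure D3:**
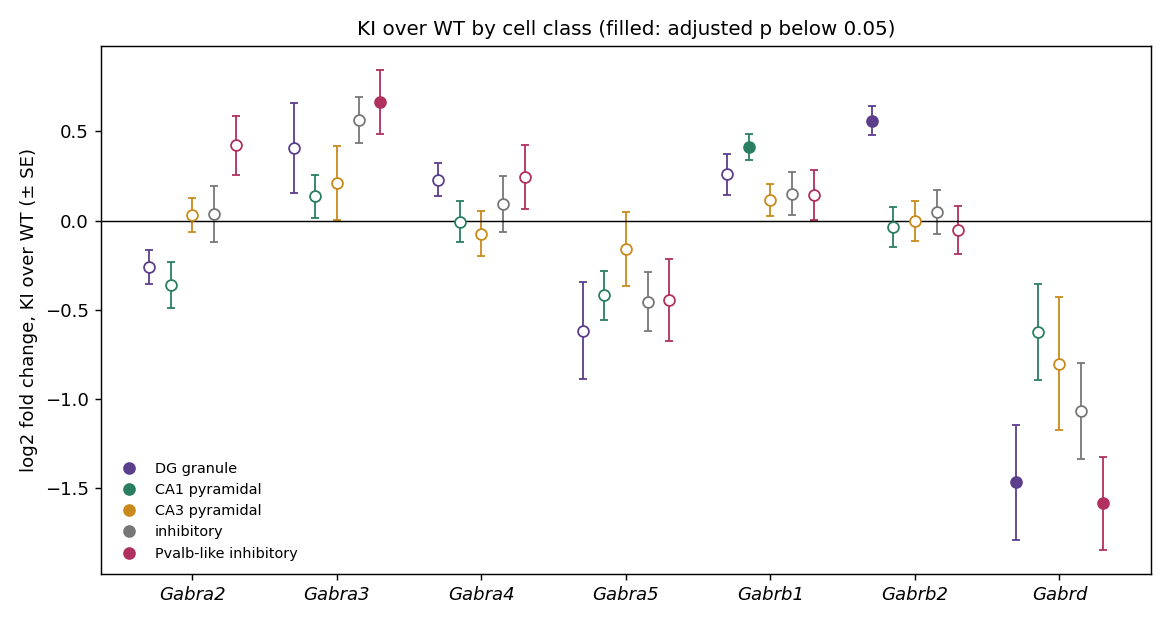
Log2 fold change of KI over WT with its SE from edgeR for the 7 genes in 5 cell classes, each color a class. Filled points passed an adjusted p of 0.05: Gabrb2 and Gabrd in DG, Gabrb1 in CA1, and Gabra3 and Gabrd in Pvalb-like nuclei.

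Over all nuclei together 0 of the 7 members passed, where 0.875% of 21715 genes did. Gabrd was at 15.3 and 14.6 CPM in WT against 5.31 and 8.02 CPM in KI (-1.11, SE 0.20, adjusted p = 0.0656), and DESeq2 called 3 members, and 9.13% of the 20089 genes it gave an adjusted p. At an unadjusted p below 0.05 there were 4, against 24.2% of all genes. In glia 0 passed, where 0.00638% of 15664 genes did, and 1 member had an unadjusted p below 0.05, against 12.3%. DESeq2 called 0 there, and 0.66% of all genes. The glia sum holds several types in unequal parts, with 564 and 604 astrocytes in WT against 211 and 292 in KI. Oligodendrocytes numbered 2033 and 1226 in WT against 2106 and 862 in KI. In this sum, makeup and level per type cannot be told apart. In astrocytes, where its CPM was highest, Gabrb1 was at 2413 and 2577 CPM against 2223 and 2301 CPM (-0.08, SE 0.18, adjusted p = 0.913).

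Whether the KI effect differed between classes was tested directly for 4 pairs of classes, with the library as a block and adjustment over all genes of a pair. Gabrb2 differed in 3 of them. Its effect was larger in DG than in CA1 by 0.61 (SE 0.11, adjusted p = 0.0028), than in CA3 by 0.57 (SE 0.10, adjusted p = 0.00328) and than in inhibitory neurons by 0.51 (SE 0.12, adjusted p = 0.0406). For Gabra5 the effect in DG minus that in CA3 was -0.48 (SE 0.10, adjusted p = 0.00843). Gabra2 differed in CA1 minus CA3 by -0.40 (SE 0.08, adjusted p = 0.00886) and Gabrb1 by 0.30 (SE 0.08, adjusted p = 0.0370). Without WT replicate 2 none of these 6 differences passed (adjusted p = 0.0586 to 0.283), and without WT replicate 1 only that of Gabra2 did (0.0116, against 0.0940 to 0.202 for the others). Assigning each nucleus by its own markers ended the calls of Gabra5 (-0.31, adjusted p = 0.144), Gabra2 (-0.35, adjusted p = 0.0862) and Gabrb1 (0.23, adjusted p = 0.303), and lowered the Gabrb2 difference between DG and CA3 to 0.33 (adjusted p = 0.0467). The Gabrb2 difference between DG and inhibitory neurons was also lost with library totals (0.47, adjusted p = 0.0543) and without KI replicate 2 (0.42, adjusted p = 0.080). So 1 member passed for DG against CA1, where 13.4% of genes did, and 2 for DG against CA3, where 11% did. For CA1 against CA3, 2 passed, where 3.66% of genes did, and for DG against inhibitory neurons 1, where 5.52% did. For Gabrd the difference did not pass between DG and CA1 (-0.86, SE 0.30, adjusted p = 0.0878), DG and CA3 (-0.72, SE 0.37, adjusted p = 0.285) or DG and inhibitory neurons (-0.39, SE 0.22, adjusted p = 0.415). The CA1 and CA3 values of Gabrd were themselves at background.

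Among the other GABA-A subunit genes, Gabrg3, a gamma subunit whose gene lies beside Gabra5, fell in DG from 136 and 140.0 CPM to 40.3 and 39.6 CPM (-1.65, SE 0.10, adjusted p = 0.00173). Its CA1 values were 504 and 479 CPM in WT against 351 and 432 CPM in KI (-0.24, SE 0.09, adjusted p = 0.159), and in CA3 the change was 0.02 (SE 0.12, adjusted p = 0.938). In Sst-like inhibitory nuclei, where 1.67% of all genes passed, Gabrg3 rose from 408 and 361 CPM to 482 and 550.2 CPM (0.56, SE 0.14, adjusted p = 0.0445).

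**Figure D4:**
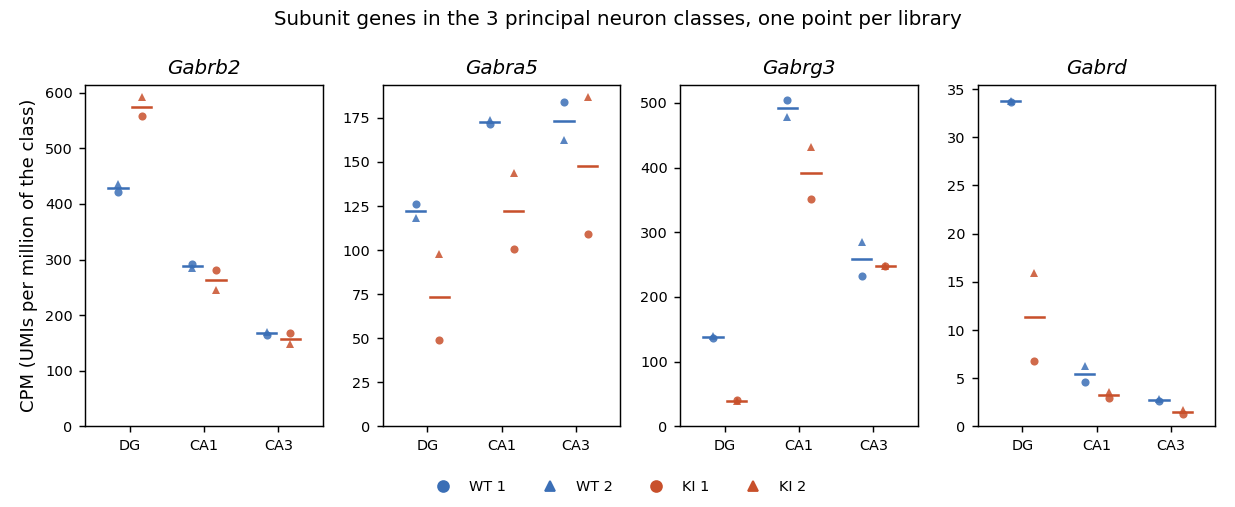
CPM of 4 subunit genes in DG granule, CA1 and CA3 pyramidal neurons, on linear axes from 0, with 1 point per library (blue WT, red KI) and bars for group means. Gabrb2 passed as higher in KI in DG, Gabrg3 and Gabrd as lower, and Gabra5 did not pass.

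Of 15 genes for the scaffold, assembly and trafficking of the receptor, 1 passed in DG and in CA1, as lower, as did 4.95% and 2.58% of all genes in these classes. This was Shisa7, an auxiliary protein of GABA-A receptors, which fell from 70.5 and 73.5 CPM to 33.9 and 43.6 CPM in DG (-0.76, SE 0.13, adjusted p = 0.0194). In CA1 it fell from 93.4 and 90.7 CPM to 51.5 and 57.8 CPM (-0.66, SE 0.10, adjusted p = 0.0165). Of 7 genes for GABA-B receptors and their partners 1 passed in DG, where 4.95% of all genes passed as lower. The potassium channel gene Kcnj6 fell from 674 and 687 CPM to 447 and 506 CPM (-0.38, SE 0.08, adjusted p = 0.0405). Of the 7 genes for chloride balance 0 passed in DG with edgeR, against 9.87% of all genes, and 5 had an unadjusted p below 0.05, against 29.3%. In CA3 and in inhibitory neurons as a whole 0 genes of these 3 lists passed, against 2.32% and 0.0188% of all genes. At an unadjusted p below 0.05 the scaffold, chloride and GABA-B lists had 3, 2 and 2 genes in CA3 and 2, 2 and 1 in inhibitory neurons, against 20.8% and 14.3% of all genes. In Pvalb-like nuclei 1 gene of the scaffold list passed, where 1.55% of all genes passed as lower. Trak1, a trafficking adaptor, fell there from 128 and 121 CPM to 79.8 and 72.2 CPM (-0.61, SE 0.17, adjusted p = 0.0289).

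Across 13 named classes with at least 20 nuclei in every library, the profiles of the members were set beside each other and beside those of 14230 genes with at least 10 CPM in some class. Classes come from the same 4 libraries and share free RNA, so these correlations of log2(CPM + 1) are descriptions. Among the members, Gabra2 and Gabra4 were most alike (Pearson r = 0.80 over 13 classes), followed by Gabra2 and Gabrb1 (0.77), Gabra2 and Gabra5 (0.74) and the head-to-head pair of Gabra4 and Gabrb1 (0.74). Gabra3 and Gabra4 were least alike (-0.24). The genes closest to Gabrd were Ptchd1 (r = 0.84), Ndrg4 (0.83) and Pdp1 (0.82). Its profile is limited by low counts in several of these classes. In fibroblasts, where Pdp1 was highest at 27.5 CPM, Gabrd had 1 or 2 UMIs per library. The genes closest to Gabra4 were Trdn (0.90), Gm15738 (0.89) and Gm16267 (0.89). For Gabra5 they were Traip (0.95), Cnksr2 (0.95) and Nos1ap (0.93), for Gabra2 Hectd2 (0.93), Kcnab2 (0.93) and Dbn1 (0.92), and for Gabra3 Cdc14b (0.90), Gm15398 (0.90) and 1810034E14Rik (0.89). For Gabrb1 they were Gm44257 (0.94), Trim9 (0.94) and Gm48747 (0.94), and for Gabrb2 Tenm1 (0.93), Epha10 (0.91) and Cntnap5b (0.90).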

How the data were processed

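Nuclei of the hippocampus were profiled in 4 libraries, 2 WT and 2 KI, grouped by their genotype labels. The authors deposited UMI counts per gene and barcode made with Cell Ranger 7.0.1 (per the file headers), on mm10 per the submitters' processing notes. The annotation, strand setting and use of intronic reads were not given in the sources used here. The members and gene lists were chosen with earlier results of these data known.

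Nuclei with at least 500 genes and at most 5% mitochondrial UMIs were kept, and those with simulated-doublet scores above 0.25 were removed. Clusters of high median score were left without a name, so their nuclei stay in the sums over all nuclei. The largest held 181 and 85 nuclei in WT and 37 and 377 in KI. Clustering used 2000 variable genes, 30 principal components and Leiden at resolution 0.5 (scanpy 1.11.5), without genes whose symbol starts with Gabr. Library totals were 73009975 to 80913580 UMIs. Raw counts were summed per library and class, and KI was tested against WT with edgeR 4.0.16 (quasi-likelihood, TMM factors, genes filtered by filterByExpr), with Benjamini-Hochberg adjustment within each class (called at adjusted p below 0.05). Differences between classes and between class effects used the library as a block. DESeq2 1.42.0, library totals, no filter, a replicate block, leaving out each library, other nucleus filters and other class assignments were the alternatives. The test was also run on simulated counts with 1 common spread for all genes and both groups, and the changed genes were not of low count. In DG granule neurons (16408 genes) it recovered 77% of genes changed by 1 on the log2 scale and 100% of those changed by 2. In inhibitory neurons it recovered 67% and 100%. In the data the KI libraries of DG granule neurons differed more than the WT libraries, so these shares may not hold there. Named genes were all members, up to 4 genes per direction of each list with adjusted p below 0.05 and at least 10 CPM, and the 3 nearest profiles of each member. Results of some genes of the lists, and the counts of those lists, are not reported here.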

Additional observations from a re-analysis of the deposited data

Results flagged for a closer look

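Of 28 direct tests of whether the KI effect of a subunit gene differed between classes, 6 passed an adjusted p of 0.05, and these are the results given here as values. Of all genes, 13.4% passed for DG against CA1 and 11% for DG against CA3. For CA1 against CA3 3.66% passed, and for DG against inhibitory neurons 5.52%. The difference for Gabrb2 was 0.61 in DG granule neurons minus CA1, 0.57 in DG minus CA3 and 0.51 in DG minus inhibitory neurons, on the log2 scale. For Gabra5 it was -0.48 in DG minus CA3. In CA1 minus CA3 it was -0.40 for Gabra2 and 0.30 for Gabrb1. The pairs share classes and all share the same 4 libraries, so they are not independent of each other. Without WT replicate 2 none of the 6 passed, and without WT replicate 1 only that of Gabra2 did. Assigning each nucleus by its own markers ended the calls of Gabra5, Gabra2 and Gabrb1, and library totals or leaving out KI replicate 2 ended that of Gabrb2 in DG minus inhibitory neurons.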

How the results depend on the processing

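Of 602 refits of single members, 517 kept their direction and their side of the threshold, 13 lost a call, 40 gained a call and 32 changed sign. Only results that had passed could lose a call, and these were a small part of those refit. They were Gabrb2 and Gabrd in DG, Gabrb1 in CA1, and Gabrd and Gabra3 in Pvalb-like nuclei. The cause of the lost and gained calls and of the changed signs was not tested. The genes called numbered 190 in all nuclei, 1612 in DG, 1113 in CA1, 357 in CA3, 3 in inhibitory neurons, 1 in glia and 469 in Pvalb-like nuclei. DESeq2 called 1835 in all nuclei, 163 in inhibitory neurons, 103 in glia and 98 in Pvalb-like nuclei. Without the low-count filter there were 701 in all nuclei, 3321 in DG, 1896 in CA1, 1879 in CA3, 1020 in inhibitory neurons and 867 in glia. Assigning nuclei one by one gave 493 in CA1, 15 in inhibitory neurons and 0 in glia. The alternatives in Pvalb-like nuclei and without 1 inhibitory cluster were added after seeing the data. Glia had 0 with library totals or with nuclei of at least 1000 genes, and inhibitory neurons 257 without the cluster of low marker level.

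With the share of all genes called in the same fit, members called were 3 over all nuclei with DESeq2 (9.13%), 1 there (2.47%) and 2 in inhibitory neurons (4%) without the filter, 0 in CA1 with library totals (7.58%) or one-by-one assignment (3.1%), and 1 in Pvalb-like nuclei with DESeq2 (1.59%) or library totals (2.73%). Class effects differed for 2 members in DG against CA1 without the filter (10.2% of genes), 1 in DG against CA3 (7.29%) and 0 in CA1 against CA3 (1.11%) with one-by-one assignment, and 0 in DG against inhibitory neurons with library totals (5.62%). The leading class was the same for 4 of 7 members in WT alone. Library totals shifted the median of all genes in DG by -0.136 on the log2 scale, and the share of calls that were higher went from 62.5% to 49.2% in CA1, 65% to 50.2% in CA3 and 61.8% to 37.5% in Pvalb-like nuclei.

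Same-numbered libraries did not deviate together (correlations of -0.251 to 0.0837 over 6 sums), so the numbers were not taken as pairs. With the replicate block the genes called were 1487 in all nuclei, 2916 in DG, 1094 in CA3, 373 in inhibitory neurons and 118 in glia. The members called were then 3 in DG (17.9% of genes), 2 over all nuclei (6.85%) and 1 in inhibitory neurons (2.33%). With the numbers crossed, an alternative added after seeing the data, genes called were 2897 in DG, 1843 in CA1, 1174 in CA3, 117 in inhibitory neurons and 13 in glia. In DG 3 members were called there as well (17.7% of genes). Gabra4 in glia was -0.00823 with the block and -0.00363 crossed.

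With 1 library left out, the lone library of its group was assumed to vary like the other group. Genes called then ran from 216 to 7113 in all nuclei, 152 to 8233 in DG, 273 to 7628 in CA1, 2 to 5423 in CA3, 4 to 1170 in inhibitory neurons, 22 to 2608 in glia and 144 to 1333 in Pvalb-like nuclei. The members called also changed with the library left out, as did the share of all genes, so their counts are not compared here. In DG the log2 change ran from 0.53 to 0.57 for Gabrb2 and from -2.14 to -0.98 for Gabrd. For Gabrb1 in CA1 it ran from 0.37 to 0.43. In Pvalb-like nuclei it ran from -1.71 to -1.49 for Gabrd and from 0.46 to 0.84 for Gabra3. Class effects differed for 0 to 5 members in DG against CA1, 0 to 4 members in DG against CA3, 0 to 3 members in CA1 against CA3 and 0 to 1 members in DG against inhibitory neurons, where the shares of all genes were 4.45% to 21.5%, 3.52% to 16.5%, 2.43% to 5.8% and 2.26% to 6.05%. Signs changed for members that had not passed. Over all nuclei the log2 change ran from -0.00246 to 0.13 for Gabrb1. In CA1 the log2 change ran from -0.15 to 0.11 for Gabra4 and -0.20 to 0.10 for Gabrb2. In CA3 the log2 change ran from -0.0312 to 0.46 for Gabra3, -0.13 to 0.11 for Gabrb2, -0.0605 to 0.12 for Gabra2, -0.23 to 0.0683 for Gabra4 and -0.57 to 0.16 for Gabra5. In inhibitory neurons the log2 change ran from -0.18 to 0.28 for Gabra2, -0.0914 to 0.16 for Gabrb2 and -0.13 to 0.27 for Gabra4. In glia the log2 change ran from -0.60 to 0.21 for Gabrb1, -0.29 to 0.0682 for Gabra2, -0.48 to 0.45 for Gabra4 and -0.0623 to 1.03 for Gabrb2. In Pvalb-like nuclei the log2 change ran from -0.0804 to 0.39 for Gabrb1, -0.19 to 0.0694 for Gabrb2 and -0.0874 to 0.49 for Gabra4. With library totals it was -0.0504 for Gabra2 in CA3, -0.0558 for Gabra2 and -0.0485 for Gabrb2 in inhibitory neurons and -0.0429 for Gabra4 in glia. One-by-one assignment gave 0.0198 for Gabra4 and 0.23 for Gabrb2 in CA3, and resolution 1 gave 0.00157 for Gabrb2 there. Genes at a few UMIs, such as Gabrd in Sst-like, Vip-like and Cnr1-like nuclei, are limited by depth.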
